A study of Mus musculus with 6 samples.

Results

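Casp1, Casp4, Casp12, Ripk2, Ddx58 and Map3k7 are genes of inflammatory caspases and of innate immune signalling, and they were 6 of the 53546 gene features counted in this spinal cord injury series. They were chosen by name and not by their values, and each was kept because its position in the files is its position in the mouse build GRCm38. RNA sequencing counts were available for 3 injury libraries and 3 control libraries of C57BL/6 mice. The labels call the injury group spinal cord injury and the other group control, and give no genetic change, no method or level of the injury and no time after it. The labels name the tissue as spinal cord and as intervertebral disc, while the series text speaks of retina and of an age of 21 days. Nothing in the labels ties a library to its own animal or says whether animals were pooled, so each p-value reflects the spread among libraries alone, and that spread may be technical.

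Caspase-1 is the protease that inflammasomes activate. It cuts the precursors of interleukin-1 beta and interleukin-18 and the pore protein gasdermin D, which opens the cell membrane in pyroptosis. Mouse Casp4 encodes the protease long known as caspase-11, which binds bacterial lipopolysaccharide in the cytosol and also cuts gasdermin D, and Casp12 encodes a caspase that in rodents is associated with the endoplasmic reticulum. Ddx58 encodes RIG-I, a helicase that senses viral RNA in the cytosol and signals towards type I interferon. Ripk2 is the kinase that carries signals from the peptidoglycan sensors NOD1 and NOD2, and Map3k7 encodes TAK1, the kinase on which NOD, Toll-like receptor and cytokine signals converge before NF-kB and the MAP kinases. In the injured spinal cord, inflammasome genes are known from microglia, infiltrating myeloid cells and neurons.

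The 3 caspase genes lie side by side on the plus strand of chromosome 9. Casp1 was counted over 5298508 to 5307290, Casp4 over 5308828 to 5336783 and Casp12 over 5345430 to 5373032, so 1537 bases separate Casp1 from Casp4 and 8646 bases separate Casp4 from Casp12. The other genes lie on chromosome 4, Ripk2 on the minus strand at 16122733 to 16163647, Map3k7 on the plus strand at 31964097 to 32023467 and Ddx58 on the minus strand at 40203773 to 40239828. All counts are exonic sums per gene. The exon models of Casp4, Casp12, Ripk2, Ddx58 and Map3k7 lay 100% on exons of the same gene in GENCODE M21 on GRCm38. The Casp1 model held all annotated Casp1 exons but had only 47.7% of its 3136 bases on them, with 0% on exons of other genes, so its counts can include reads from stretches inside the gene that M21 does not call exonic. No member shared an exonic base with another counted feature, and the small models Gm11926 and Gm26254 lie within the span of Map3k7.

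The RefSeq promoter windows on GRCm38.p6 are shown because the 3 neighbouring caspase genes differed in their patterns over the libraries. Each window runs from 250 bases before the annotated start to 50 bases after it, and a window was found for 5 of the 6 genes. The windows are chr9:5298267-5298566 for Casp1, chr9:5308599-5308898 for Casp4 and chr9:5345226-5345525 for Casp12, all on the plus strand, chr4:40239776-40240075 for Ddx58 on the minus strand and chr4:31963857-31964156 for Map3k7 on the plus strand. The table holds 2 starts for Casp4, of which 1 is printed. Capitals mark matches, on either strand, to 5 motifs searched for, namely the NF-kB consensus of 10 letters, the interferon response pair (GAAA, any 2 bases, GAAA), the STAT motif TTCNNNGAA, the TATA box TATAAA and the GC box GGGCGG.
Casp1: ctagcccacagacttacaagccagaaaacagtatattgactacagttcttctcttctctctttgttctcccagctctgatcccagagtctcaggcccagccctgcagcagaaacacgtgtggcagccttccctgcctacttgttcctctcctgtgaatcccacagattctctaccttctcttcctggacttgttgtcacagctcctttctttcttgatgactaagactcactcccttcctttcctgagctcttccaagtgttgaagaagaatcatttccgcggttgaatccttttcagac
Casp4: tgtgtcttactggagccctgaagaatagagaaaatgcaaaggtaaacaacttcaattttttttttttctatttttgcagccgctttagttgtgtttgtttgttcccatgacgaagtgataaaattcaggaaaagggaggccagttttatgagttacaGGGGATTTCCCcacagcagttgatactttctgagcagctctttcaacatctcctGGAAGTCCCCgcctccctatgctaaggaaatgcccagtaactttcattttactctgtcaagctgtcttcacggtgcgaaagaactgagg
Casp12: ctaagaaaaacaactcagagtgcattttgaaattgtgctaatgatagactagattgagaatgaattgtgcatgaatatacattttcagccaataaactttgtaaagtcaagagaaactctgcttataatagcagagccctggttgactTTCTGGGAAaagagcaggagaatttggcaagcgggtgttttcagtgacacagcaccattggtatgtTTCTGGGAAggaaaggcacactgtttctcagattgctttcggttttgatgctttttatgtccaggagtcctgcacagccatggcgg
Ddx58: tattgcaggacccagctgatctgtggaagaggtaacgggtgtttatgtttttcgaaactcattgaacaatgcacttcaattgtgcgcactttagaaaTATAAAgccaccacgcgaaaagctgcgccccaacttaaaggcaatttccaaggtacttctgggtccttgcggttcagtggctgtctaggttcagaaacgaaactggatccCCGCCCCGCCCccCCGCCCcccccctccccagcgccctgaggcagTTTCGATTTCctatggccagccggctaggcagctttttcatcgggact
Map3k7: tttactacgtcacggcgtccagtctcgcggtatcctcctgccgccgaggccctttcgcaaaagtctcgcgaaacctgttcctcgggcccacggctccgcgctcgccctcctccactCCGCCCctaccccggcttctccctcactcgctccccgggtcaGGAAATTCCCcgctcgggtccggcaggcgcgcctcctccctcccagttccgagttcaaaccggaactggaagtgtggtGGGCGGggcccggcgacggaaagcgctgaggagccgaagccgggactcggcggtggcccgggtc

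Casp4 and Map3k7 were the genes with an NF-kB consensus match in the window. The Casp4 window held overlapping matches whose first bases were at -93 and -92 from the start, and a further one at -39, and the Map3k7 window held one at -92. This consensus was found in 8.49% of the 32544 promoter windows of the table. Ddx58 had a match to the interferon response pair on the minus strand at position 3 of the transcript, a pair found in 3.45% of all windows. It also had a TATA box match at -153 (13.6% of all windows) and GC box matches at -43, -38 and -30, of which the first and the second share a base (35.9% of all windows). Casp12 had the STAT motif at -102 and -36, in 8.33% of all windows, and Casp1 had none of the 5 motifs. GC content was 48.0% for Casp1, 42.0% for Casp4, 41.0% for Casp12, 53.3% for Ddx58 and 69.0% for Map3k7, whose window held 36 CG dinucleotides against 3 to 15 in the others. A match describes letters only.

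Total counts were 2905828, 2847578 and 2385703 in injury 1, 2 and 3 and 3896310, 3921627 and 2615213 in controls 1, 2 and 3, so 3 counts, the limit that a count of 0 allows, came to between 0.765 and 1.26 CPM. CPM is a gene's count over its library's total, times 1000000. The libraries did not divide as their labels do. Of 21 markers of spinal cord neural cells, 14 could be read on exons of their own gene, and they summed to 7954, 7976 and 7523 CPM in injury 1, 2 and 3 against 281, 145 and 7391 CPM in controls 1, 2 and 3. In controls 1 and 2, Pou3f2 and Ncan were at 0 and Gpr37 was at 1.27 CPM or less. Calb1 was the exception among the neural markers read. In control 1 it lay within its injury range and made up most of the neural sum, and in control 2 it was at 78.5 CPM. Every other neural marker read was lower in both of these controls than in any injury library. Of 12 kidney tubule markers, 7 were read. They summed to 8.95, 7.37 and 3.77 CPM in the injury libraries, where 4 of them were at 0 as in control 3, and to 4068, 2115 and 8.41 CPM in controls 1, 2 and 3. Disc and cartilage markers (4 of 11 read, Krt19 at 0 in all 6 libraries) summed to 68.5, 51.3 and 43.2 CPM after injury and to 3.08, 15.3 and 52.4 CPM in the controls. Controls 1 and 2 thus lacked most defining transcripts of the labelled tissue, and each result below is given with all 3 controls, without control 3, and against control 3 alone. Every pair of libraries differed by more than sampling noise, with a chi-square, averaged over features, of at least 3.09 in each pair. All 6 were kept apart.

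With all 6 libraries, none of the 6 genes differed between injury and control beyond the spread between libraries. The test, edgeR's quasi-likelihood test with Benjamini-Hochberg adjustment over 12646 features, called 0 of 6 members and 0 features, so the background was 0%. Among all features 3245 had an unadjusted p under 0.05 and among the members 0 did. DESeq2 called 1503 features and none of the members, and limma-voom called 0, or 7042 features and 2 of the members when libraries were weighted by quality, namely Casp4 and Ddx58, both lower after injury. In CPM on library totals, the ranges of injury and control values overlapped for every one of the 6 genes. An exact two-sided permutation test of these CPM, 3 against 3 libraries, cannot go below 0.1. It gave p between 0.3 for Map3k7 and 1.0 for Casp12. The overlap depended on scaling. Under TMM, the scaling of the edgeR test, Ripk2 had 41.3, 38.9 and 48.5 CPM after injury. The controls had 22.6, 36.3 and 35.3 CPM, all below the injury range. How many of all features overlap or separate under either scaling was not counted. Neither reading can therefore be called particular to these genes.

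**Figure D1:**
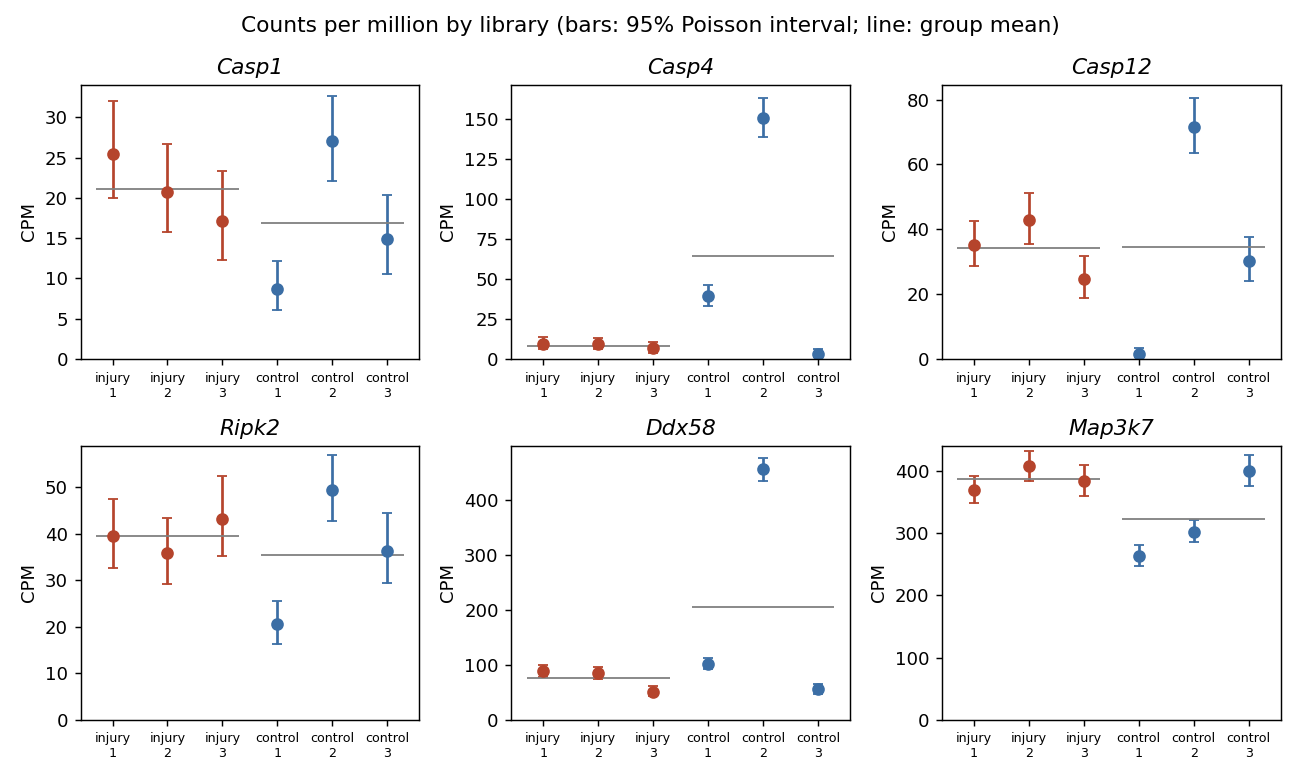
CPM of each gene in each library, with injury libraries in red on the left and control libraries in blue on the right. Points are libraries, bars are 95% Poisson intervals that cover counting error only, and lines are group means. Control 2 stands highest for all genes but Map3k7, at 151 CPM for Casp4 and 456 CPM for Ddx58, and for Map3k7 controls 1 and 2 stand lowest, at 264 and 303 CPM.

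Casp4 was the member with the widest range, its highest library holding 49.3 times the CPM of its lowest. It had 9.29, 9.13 and 6.71 CPM in injury 1, 2 and 3, from 27, 26 and 16 counts, and 39.3, 151 and 3.06 CPM in controls 1, 2 and 3, from 153, 591 and 8 counts. The injury libraries lay close together, below controls 1 and 2 and above control 3, whose 8 counts carry a 95% Poisson interval of 1.32 to 6.03 CPM. The mean of Casp4 was 8.38 ± 1.45 CPM after injury and 64.3 ± 76.9 CPM in control (SD, n = 3 each). With all 6 libraries its log2 fold change was -2.63 with a standard error of 1.10 (edgeR quasi-likelihood, Benjamini-Hochberg adjusted p = 0.197), and -1.46 without control 2. Against controls 1 and 2 alone it was -2.87 with a standard error of 0.44 (edgeR adjusted p = 0.00187), and against control 3 alone it was 1.57 with a standard error of 0.51 (edgeR adjusted p = 0.0658). The direction of the Casp4 difference therefore depended on which control library injury was set against.

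Casp1, the inflammasome protease next to Casp4, did not follow it. Casp1 had 25.5, 20.7 and 17.2 CPM in injury 1, 2 and 3, from 74, 59 and 41 counts, and 8.73, 27.0 and 14.9 CPM in controls 1, 2 and 3, from 34, 106 and 39 counts. The lowest value was that of control 1 and the highest that of control 2, with the injury libraries between them and all 3 above control 3. The group means were 21.1 ± 4.15 CPM after injury and 16.9 ± 9.31 CPM in control (SD, n = 3 each), and the log2 fold change with all 6 libraries was 0.56 with a standard error of 0.41 (edgeR adjusted p = 0.368).

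Casp12, the endoplasmic reticulum caspase, had nearly the same mean in both groups and the widest control range after Casp4. Its values were 35.1, 42.8 and 24.7 CPM in injury 1, 2 and 3 and 1.54, 71.7 and 30.2 CPM in controls 1, 2 and 3. Control 1 held 6 counts and control 2 held 281, a ratio of 46.5 in CPM, while the injury libraries spanned a ratio of 1.73 and control 3 lay among them. Its mean was 34.2 ± 9.09 CPM after injury and 34.5 ± 35.3 CPM in control (SD, n = 3 each), with a log2 fold change of 0.33 and a standard error of 0.98 (edgeR adjusted p = 0.829) that became -0.10 under total count scaling, -0.24 without control 1 and 1.21 without control 2.

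The make-up of the caspase cluster separated controls 1 and 2 from the other 4 libraries. Casp4 held 13.3%, 12.6% and 13.8% of the summed counts of the 3 caspases in injury 1, 2 and 3, and 79.3%, 60.4% and 6.35% in controls 1, 2 and 3. The share in control 3 had a 95% Wilson interval of 3.25% to 12.03%, which overlaps those of the injury libraries (8.67% to 21.2% for injury 3). Casp12 held the largest share in the injury libraries, 50.2%, 58.9% and 50.9%, and in control 3, 62.7%, but only 3.11% and 28.7% in controls 1 and 2. Casp1 held 36.5%, 28.5% and 35.3% after injury and 17.6%, 10.8% and 31.0% in controls 1, 2 and 3. These are shares of counts, to which the longer exon models give more reads, and the intervals cover counting error only.

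**Figure D2:**
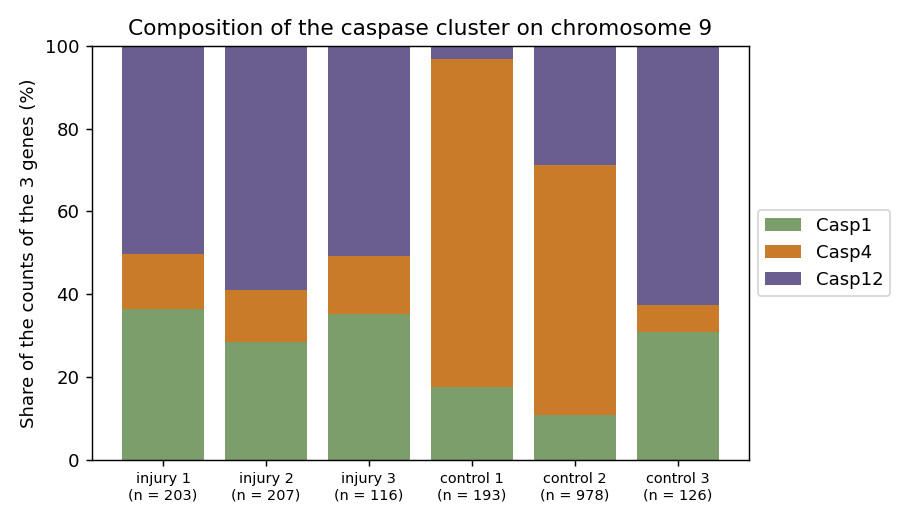
Share of the summed Casp1, Casp4 and Casp12 counts in percent (vertical axis) in each library, with the number of counts under each bar and injury libraries on the left. Casp4 takes 12.6% to 13.8% in the injury libraries, 79.3% and 60.4% in controls 1 and 2, and 6.35% in control 3.

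Ddx58, the RNA sensor RIG-I, had its highest value in control 2, as had all members but Map3k7. It had 89.1, 85.7 and 51.6 CPM in injury 1, 2 and 3 and 102, 456 and 55.8 CPM in controls 1, 2 and 3. Control 2 stood far above all other libraries, control 1 was just above injury 1, and control 3 lay inside the injury range. The means were 75.5 ± 20.8 CPM after injury and 205 ± 219 CPM in control (SD, n = 3 each), and the log2 fold change was -1.14 with a standard error of 0.70 (edgeR adjusted p = 0.307), and -0.13 without control 2. For every 100 counts of Map3k7 there were 24.1, 21.0 and 13.4 counts of Ddx58 in injury 1, 2 and 3 and 38.7, 151 and 13.9 in controls 1, 2 and 3.

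Ripk2, the NOD-dependent kinase, was among the steadiest of the 6 genes. It had 39.6, 35.8 and 43.2 CPM in injury 1, 2 and 3 and 20.5, 49.5 and 36.3 CPM in controls 1, 2 and 3. In these CPM only control 1 and control 2 lay outside the injury range, on opposite sides of it. With TMM scaling Ripk2 was lower in all 3 controls than in any injury library, but how many of all features separate in this way was not counted. Its mean was 39.5 ± 3.68 CPM after injury and 35.4 ± 14.5 CPM in control (SD, n = 3 each), with a log2 fold change of 0.38 and a standard error of 0.33 (edgeR adjusted p = 0.437).

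Map3k7, which encodes TAK1, had the highest counts in most libraries and the smallest spread. Its values were 370, 407 and 384 CPM in injury 1, 2 and 3 and 264, 303 and 400 CPM in controls 1, 2 and 3. Controls 1 and 2 were below every injury library and control 3 was within the injury range. The means were 387 ± 19.1 CPM after injury and 322 ± 70.3 CPM in control (SD, n = 3 each), and the log2 fold change was 0.42 with a standard error of 0.37 (edgeR adjusted p = 0.439). Across all 6 libraries its highest value was 1.54 times its lowest, against 2.41 times for Ripk2, 3.10 for Casp1, 8.85 for Ddx58, 46.5 for Casp12 and 49.3 for Casp4.

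Set per kilobase of counted exon, which allows levels of different genes to be compared, Map3k7 stood first in injury 1, 2 and 3 at 57.5, 63.4 and 59.7 CPM per kilobase and in control 3 at 62.3. The order below it was the same in these 4 libraries, Ripk2, Ddx58, Casp12, Casp1 and Casp4 last. Ripk2 averaged 14.0 ± 1.31 and Ddx58 10.7 ± 2.95 CPM per kilobase after injury, and Casp12 averaged 8.91 ± 2.37, Casp1 6.74 ± 1.32 and Casp4 2.26 ± 0.39 CPM per kilobase (SD, n = 3 each). Ddx58, Casp12 and Casp1 lay within an SD of their neighbours in this order, while Ripk2 and Ddx58 differed by more than either SD and Map3k7 at the top and Casp4 at the bottom stood clear of their neighbours. The Casp1 values per kilobase can be too low, because only 47.7% of its counted bases lie on annotated Casp1 exons. Its place in the order is therefore uncertain. Controls 1 and 2 had another order. In control 1 Casp4 followed Map3k7 and Ddx58 at 10.6 CPM per kilobase and Casp12 last at 0.401, and in control 2 Ddx58 was first at 64.7, ahead of Map3k7 at 47.1 and Casp4 at 40.6.

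Against control 3 alone, the control library in which the neural markers were read at the level of the injury libraries, none of the 6 genes passed the test. The same edgeR test over 13857 features called 0 of 6 members, while 6.78% of all features were called, 1.05% higher and 5.72% lower after injury. All 6 fold changes were above 0, except that of Map3k7 under upper quartile or total count scaling. Their median was 0.43 on the log2 scale, against -0.03 over all features tested. Over the 482 tested features on exons of their own gene the median was 0.18. In limma-voom all 6 fold changes were above 0 as well. Casp4 was higher in all 3 injury libraries than in control 3, and the injury mean was 2.74 times the control value. Its 95% interval ran from 0.50 to 2.63 on the log2 scale. Ddx58 was higher in 2 of 3 injury libraries, with a log2 fold change of 0.56, a standard error of 0.23 and an interval of 0.09 to 1.03 (edgeR adjusted p = 0.130).

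The other 4 genes had an unadjusted p above 0.05. Casp1 was higher in 3 of 3 injury libraries, with a log2 fold change of 0.62 and an interval of -0.01 to 1.26 (edgeR adjusted p = 0.205). Casp12 was higher in 2 of 3, at 0.31 with an interval of -0.24 to 0.85 (edgeR adjusted p = 0.480). Ripk2 was higher in 2 of 3, at 0.24 with an interval of -0.23 to 0.70 (edgeR adjusted p = 0.522), and Map3k7 in 1 of 3, at 0.07 with an interval of -0.26 to 0.41 (edgeR adjusted p = 0.810). The interval of Casp1 holds values past 2-fold, and that of Map3k7, whose value was -0.02 and -0.06 under upper quartile and total count scaling, holds none. This fit has 1 control and takes its spread from the injury libraries. Whether Casp4 and Ddx58 passed changed with the filter on low counts and with the injury libraries kept. Without a filter their log2 fold changes were 1.69 and 0.68, and without injury 3 they were 1.73 and 0.80.

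**Figure D3:**
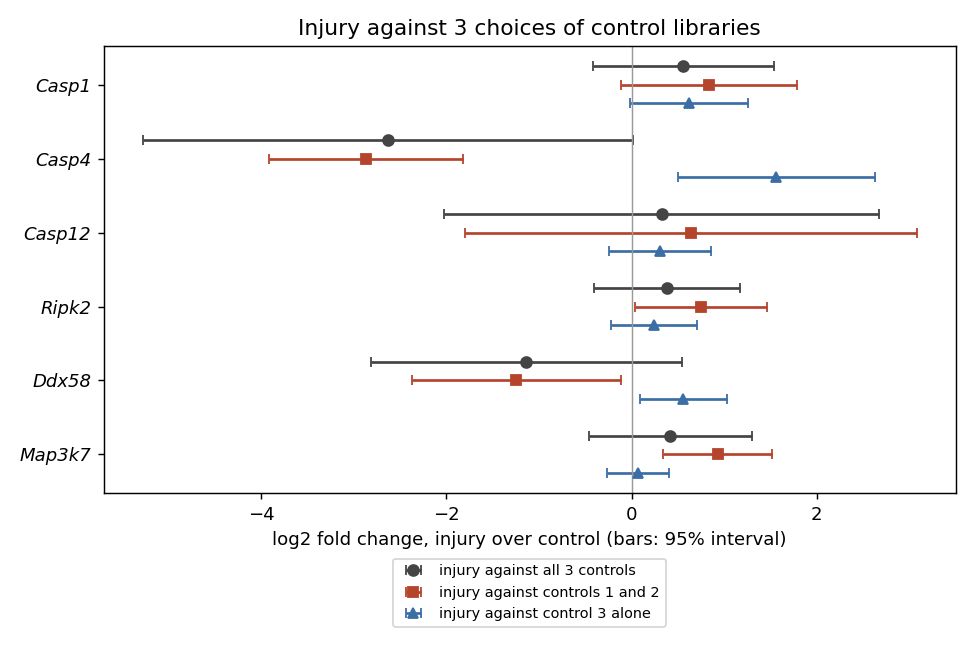
Log2 fold change of injury over control with its 95% interval (horizontal axis) for each gene, against all 3 controls (grey circles), controls 1 and 2 (red squares) and control 3 alone (blue triangles). Casp4 lies at -2.63, -2.87 and 1.57 and Ddx58 at -1.14, -1.25 and 0.56, while the points of the other 4 genes are all above 0. Under total count scaling Casp12 against all 3 controls or controls 1 and 2, and Map3k7 against control 3, are below 0.

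Against controls 1 and 2, the libraries with few neural and many kidney tubule transcripts, Casp4 was lower after injury and Map3k7 higher. Here 66.8% of 15320 features were called, 30.2% higher and 36.6% lower, so 2 of 6 members called, 1 in each direction, is a smaller share than the background. Of the 518 tested features on exons of their own gene, 53.5% were higher and 19.1% lower. Casp4 averaged 8.38 CPM after injury against 94.99 CPM in these controls, a fitted difference of 7.29-fold, and was called lower under every alternative run. That fold was 4.05 without control 2 and 11.5 under total count scaling. Map3k7 rose to a mean of 387 CPM after injury, against 283 CPM in controls 1 and 2, with a log2 fold change of 0.93 and a standard error of 0.25 (edgeR adjusted p = 0.0144). That call was lost under total count scaling, where the log2 fold change was 0.43 (edgeR adjusted p = 0.103), without injury 2 (0.0754) and without injury 3 (0.0697). Ddx58 at -1.25 (edgeR adjusted p = 0.0522) and Ripk2 at 0.75 (edgeR adjusted p = 0.0615) missed the threshold, Casp1 was at 0.83 (edgeR adjusted p = 0.103) and Casp12 at 0.64 (edgeR adjusted p = 0.602), or -0.13 under total count scaling. Ddx58 passed as lower under upper quartile and total count scaling, without a filter and with a filter of 1 CPM in 3 libraries (edgeR adjusted p of 0.00213 to 0.0466), and Ripk2 as higher under RLE scaling (edgeR adjusted p = 0.0367) and in DESeq2 (adjusted p = 0.0457). Read by overlying gene, 0 members passed as higher and 2 as lower.

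These 2 controls also differed between themselves. On library totals, control 2 had 3.84 times the CPM of control 1 for Casp4, 46.5 times for Casp12 and 4.47 times for Ddx58. It had 3.10 times for Casp1, 2.41 times for Ripk2 and 1.15 times for Map3k7. With TMM scaling the direction for Map3k7 turned, at 222 CPM in control 2 and 291 CPM in control 1. Casp1 (19.8 and 9.61 CPM) and Ripk2 (36.3 and 22.6 CPM) stayed higher in control 2. Set against control 1 alone, 4 members passed as higher after injury (Casp1, Casp12, Ripk2 and Map3k7) and 1 as lower (Casp4), with Ddx58 at -0.24 (edgeR adjusted p = 0.267), while 79.1% of all features were called, 38.6% higher and 40.5% lower. Set against control 2 alone, 3 passed as higher (Casp1, Ripk2 and Map3k7) and 2 as lower (Casp4 and Ddx58), with Casp12 at -0.09 (edgeR adjusted p = 0.696), while 78.5% of all features were called, 35.2% higher and 43.3% lower. In both, 5 of 6 members called is near the share over all features. The Casp12 value was 4.64 on the log2 scale against control 1 and -0.09 against control 2. Casp1 and Ripk2 had their highest CPM in control 2, yet their fitted values against it were 0.61 and 0.64. The fits use TMM scaling, which with all 6 libraries gave control 2 a factor of 1.36. On that scale control 2 had 19.8 CPM of Casp1, against 26.6, 22.5 and 19.3 CPM in injury 1, 2 and 3. For Ripk2 it had 36.3 CPM, against 41.3, 38.9 and 48.5 CPM. Both fits take the spread of the control from the injury libraries.

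In bulk RNA, fewer cells of a type and less RNA per cell cannot be told apart. Markers of several cell types also differed between the libraries, and not all in the same way. Of 25 myeloid and microglial markers 11 were read, and they summed to 1236, 874 and 432 CPM in injury 1, 2 and 3 and to 304, 1385 and 684 CPM in controls 1, 2 and 3. Ctss, a protease of microglia and macrophages, made up most of the sum after injury, with 905, 639 and 285 CPM there and 51.3, 277 and 510 CPM in the controls. Ptprc, the pan-leukocyte phosphatase CD45, had 28.9, 22.5 and 14.3 CPM after injury and 32.1, 244 and 21.8 CPM in the controls, and Ccr2, a receptor of inflammatory monocytes, had 5.51, 1.76 and 3.77 CPM after injury and 5.39, 208 and 2.29 CPM in the controls. Both were highest in control 2, as were all members but Map3k7 in CPM. Lyn, Lyz2 and Mrc1 of the same list were also highest there. Ctss, C1qc, Aif1 and Itgam were instead highest in injury 1. C1qc had 106 CPM there and 78.3 CPM in control 2, Aif1 31.0 and 29.6 CPM, and Itgam 35.4 and 33.4 CPM. Tfec, a transcription factor of macrophages, was at 0 in every injury library and in control 3, while controls 1 and 2 had 49.0 and 65.5 CPM. Endothelial markers (2 of 6 read) summed to 32.3, 30.6 and 35.2 CPM after injury and to 56.5, 305 and 47.0 CPM in the controls, and lymphocyte markers (4 of 11 read) to 104, 89.9 and 88.9 CPM and to 118, 215 and 89.5 CPM. Blood markers (2 of 5 read) summed to 403, 6.67 and 85.1 CPM after injury and to 20.8, 46.9 and 356 CPM in the controls, almost all of it from the haemoglobin gene Hbb-bs in the libraries with most. The part of these cell types in the values of the 6 genes was not tested.

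Within the injury group, Casp1, Casp4, Ddx58 and the myeloid sum had the same order in CPM, injury 1 highest and injury 3 lowest. For Casp4 injury 1 and 2 differed by 27 against 26 counts, and with TMM scaling injury 2 was higher (9.70 and 9.92 CPM). With that scaling Ddx58 was nearly equal in injury 1 and 2 (93.09 and 93.07 CPM). Ddx58 had 1.73 times as many CPM in injury 1 as in injury 3, Casp1 had 1.48 times and Casp4 1.39 times, while Ripk2 was highest in injury 3 and Map3k7 in injury 2. Replicate numbers carry no order in time or dose, and with 3 libraries this is a description only.

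Genes that work beside the 6 members were read from pathway lists, each on exons of its own gene, by summing features that lie on it. Few were readable, and sums of this kind are not a gene's full level. With all 6 libraries and against control 3, 0 of the 30 genes tested from 6 lists passed the edgeR test, with 8 and 2 at an unadjusted p under 0.05 and smallest adjusted p of 0.196 and 0.198. The background in this reading was 0% of 5125 genes with all 6 libraries and 0.709% of 5362 genes against control 3. Against controls 1 and 2 it was 28.1% higher, 31.5% lower and 59.6% in either direction of 5642 genes, with a median log2 fold change of -0.08, and the list counts below are read against those values.

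Of 24 inflammasome genes, the partners of Casp1 and Casp4, 8 were readable and 4 had enough counts to be tested. Of these, 0 were higher and 1 was lower after injury than in controls 1 and 2, with a list median of -0.30. The gene was Gsdmd, which encodes the pore protein that both caspases cut, with 5.51, 2.46 and 3.35 CPM after injury and 5.39, 41.1 and 2.29 CPM in controls 1, 2 and 3 (log2 fold change -2.43, edgeR adjusted p = 0.0349). Like Casp4 it was highest in control 2, but control 1 was within the injury range. Nek7, a kinase needed for the NLRP3 inflammasome, had 65.7, 70.2 and 81.3 CPM after injury and 91.6, 51.8 and 63.1 CPM in the controls and did not pass. Aim2, a DNA sensor, and Il33, an alarmin cytokine, were at 6.54 and 11.4 CPM or less after injury and did not pass either.

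Of 15 genes around NOD and RIPK2, 3 were readable and 2 were lower after injury than in controls 1 and 2, with a list median of -1.02. Birc3, which encodes the ubiquitin ligase cIAP2 and is itself an NF-kB target, had 19.3, 15.5 and 14.3 CPM after injury and 263, 440 and 18.7 CPM in controls 1, 2 and 3 (log2 fold change -4.39, edgeR adjusted p = 0.000261). Birc2, which encodes cIAP1, had 195, 239 and 238 CPM after injury and 378, 537 and 225 CPM in the controls (log2 fold change -1.02, edgeR adjusted p = 0.00965). For both, control 3 was close to the injury libraries. Otulin, a deubiquitinase of linear chains, had a log2 fold change of -0.72 (edgeR adjusted p = 0.125).

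Of 28 genes around TAK1 and NF-kB, 10 were readable, and against controls 1 and 2 none was higher and 5 were lower, with a list median of -1.01. The 5 were Map3k14, the NIK kinase, at -3.93, Map3k8, the kinase TPL2, at -3.35, Relb, an NF-kB subunit, at -3.34, Ikbkb, the IKK beta kinase, at -1.95 and Mapk14, the p38 alpha kinase, at -0.79 on the log2 scale (edgeR adjusted p of 0.000501 to 0.0205). Map3k8 had 11.4, 10.9 and 7.13 CPM after injury and 82.9, 119 and 11.1 CPM in the controls. Map3k7 itself was higher after injury than in these controls. Tab1, a partner subunit of TAK1, had 7.92, 7.02 and 5.87 CPM after injury and 7.70, 27.5 and 7.65 CPM in the controls and did not pass (log2 fold change -1.23, edgeR adjusted p = 0.0640).

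Of 32 genes of RIG-I-like receptors and interferon, 9 were readable, and against controls 1 and 2 none was higher and 5 were lower, with a list median of -1.03. Trim25, the ubiquitin ligase that acts on RIG-I, had 21.0, 20.4 and 18.0 CPM after injury and 94.96, 87.97 and 16.4 CPM in the controls (log2 fold change -2.26, edgeR adjusted p = 0.00155). The others were Ikbke, a kinase upstream of interferon, at -4.16, Irf5, a transcription factor of interferon and cytokine genes, at -1.31, Tank, an adaptor, at -1.03 and Ifnar1, a chain of the interferon receptor, at -0.97 on the log2 scale. The interferon-induced genes Ifit2 and Oas1a did not pass. Oas1a had 7.92, 6.67 and 2.10 CPM after injury and 2.82, 40.5 and 5.74 CPM in the controls. Its highest value was in control 2, as for all members but Map3k7.

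**Figure D4:**
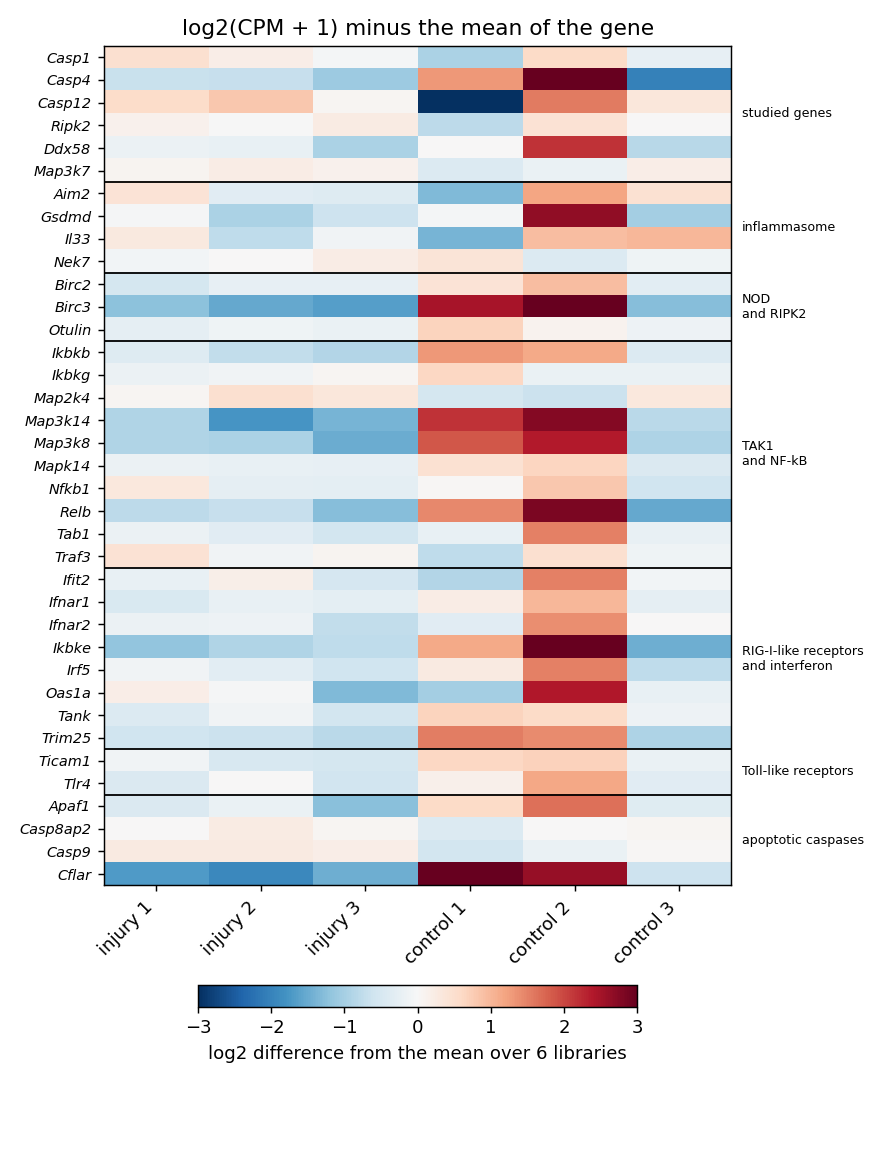
Difference of log2(CPM + 1) from the gene's mean over 6 libraries (colour, stopping at 3 in each direction) for the 6 genes and readable list genes with at least 5 CPM in 1 library, with injury libraries on the left. Birc3, Map3k14, Map3k8 and Cflar are dark red in both controls 1 and 2, while Ddx58, Gsdmd and Oas1a are dark red in control 2 only.

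The genes whose pattern over the 6 libraries was most like each member were found by the root mean square difference of centred log2(CPM + 1), among 472 or 473 features on exons of their own gene with at least 5 mean CPM. For Casp4 these were Samd9l (0.56), Map3k8 (0.64) and Asb15 (0.68). Samd9l, an interferon-induced gene, had 96.7, 101 and 81.7 CPM after injury and 258, 930 and 79.5 CPM in the controls. For Ddx58 they were Mdfic (0.07), Trim14 (0.25) and Irf5 (0.32), for Casp1 Slc35a1 (0.19), Zbtb5 (0.20) and Gpr63 (0.23), and for Casp12 Trpc6 (0.58), Gm32014 (0.64) and Galnt12 (0.72). For Ripk2 they were Slc35a1 again (0.09), Cadps2 (0.19) and Gm44250 (0.20), and for Map3k7 Stx17 came first (0.07). Among the members, Casp1 and Ripk2 were the closest pair (0.25) and Casp4 and Casp12 the most distant (2.39), although these caspase genes are neighbours on the chromosome. These likenesses rest on 6 libraries, of which controls 1 and 2 set most of the differences.

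The nearest counted features gave no common pattern with the members. The features on either side of the caspase cluster, Gm24896 and Gm48506, had 0 counts in every library. Aco1, next to Ddx58, had 217, 227 and 205 CPM after injury and 774, 302 and 193 CPM in controls 1, 2 and 3, so control 1 and not control 2 was its highest library. Osgin2, before Ripk2, had 104, 127 and 104 CPM after injury and 23.1, 42.6 and 105 CPM in the controls.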

How the data were processed

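RNA sequencing counts per gene were used for 6 libraries, grouped by the labels' sample group field with replicate numbers from the titles. Per the file headers, featureCounts 2.0.1 gave the deposited counts, from read pairs with both ends on 1 chromosome, by gene name over exons. The counting ignored strand, so a gene and an antisense partner cannot be told apart, and left out reads that map to several places or genes. Bowtie 0.12.2 and the builds mm8 and mm9 are named in the submitters' processing notes. The aligner, build and annotation behind the counts are not given in the sources used here. The whole-series table repeats the counts, with 0 cells differing. Its deposited FPKM columns were described only and not tested. Library preparation used Trizol and an Illumina TruSeq kit, per the labels' protocols.

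Exons in the files were compared, unconverted, with GENCODE M21 on GRCm38. For 1755 features (3.28%), 90% or more of the bases were exonic in the gene they are named for, and 5 of the 6 members were among them. Other list genes and markers were read by overlying gene, summing features that share 100 or more exonic bases with M21 and have 90% or more of these on 1 gene. CPM were counts scaled to library totals.

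edgeR 4.0.16 (R 4.3.3, TMM, default filter, quasi-likelihood F test, Benjamini-Hochberg over all tested features, calls at 0.05) compared injury with all controls, without control 3, and with control 3 alone. Standard errors came from the F statistic. The fit was also run on simulated counts with the same spread for every feature and library. The controls here differ far more, so that run does not show how the fit performs on these data. Alternatives were other scalings and filters, the 10 most abundant features left out, DESeq2 1.42.0, limma-voom (limma 3.58.1), a replicate block and leaving out each library. The reading by overlying gene and the alternatives of the comparison with controls 1 and 2 were chosen after seeing the data. The members and all lists were chosen with earlier results of these data known. Named genes are the members, list genes on their own exons that passed the filter, the nearest 2 features on each side and the 3 most alike. Among the list genes, 1 is not reported here. List genes and markers read by overlying gene were chosen after their values were seen.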

Additional observations from a re-analysis of the deposited data

How the results depend on the processing

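With all 6 libraries, the count of features called was 0 in edgeR under RLE, upper quartile and total count scaling and under both other filters, but 1503 in DESeq2, 7042 in limma-voom with sample quality weights, 939 without controls 1 and 2, and 0 to 10231 when 1 library was left out. Of the members, limma-voom with quality weights called 2, and leaving out 1 library called 0 to 2. The log2 fold change of Casp12 was -0.10 under total count scaling and -0.24 to 1.21 when 1 library was left out, and without controls 1 and 2 Casp4 was at 1.57 and Ddx58 at 0.56. Against control 3, features called numbered 204 in DESeq2 (200 higher and 4 lower, against 146 and 793 in edgeR), 38 by overlying gene and 758 to 1992 when 1 injury library was left out, with 1992 without injury 1. RLE scaling gave 269 higher and 773 lower, total count scaling 49 and 879, and leaving out the 10 most abundant features 333 and 701. DESeq2 gave no adjusted p for 5 of the 6 members there. Which members passed there changed without a filter and when 1 injury library was left out. Map3k7 was at -0.015 under upper quartile and -0.058 under total count scaling. Against controls 1 and 2, features called numbered 3361 by overlying gene, members called 1 to 5 when 1 library was left out, and Casp12 was at -0.13 under total count scaling and -0.094 to 4.64 when 1 library was left out. Total count scaling gave 3279 higher and 6555 lower there, and moved the median log2 fold change of all features from -0.20 to -0.75. The causes were not tested. With the replicate number as a block, 0 features and 0 members were called. Deviations from the group means correlated at 0.06, -0.14 and 0.05 for libraries of the same number, and at 0.23 for injury 1 with control 2. The large differences among the controls enter these values, so they cannot decide whether the numbers pair libraries. No pairing was assumed.

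Of the single-gene results, 210 kept direction and side of the threshold, 20 gained a call, 3 lost one and 8 turned. A count of 0 allows a true level of up to about 3 counts, and Casp4 in control 3 and Casp12 in control 1 rest on 8 and 6 counts.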

Other observations

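Apoptotic caspase and Toll-like receptor genes were read beside the inflammatory caspases. Of 10 apoptotic caspase genes and regulators 4 were readable, and none was called with all 6 libraries or against control 3. Against controls 1 and 2, Casp9, the initiator caspase of the mitochondrial pathway, was higher after injury, with 69.5, 69.9 and 67.1 CPM against 39.3, 49.98 and 58.9 CPM in controls 1, 2 and 3 (log2 fold change 0.62, edgeR adjusted p = 0.0399). Cflar, which encodes the caspase-8 inhibitor cFLIP, was lower, with 3.10, 2.46 and 3.77 CPM after injury against 112, 80.3 and 7.65 CPM in the controls (log2 fold change -5.02, edgeR adjusted p = 0.000583), and Apaf1, the apoptosome scaffold, was lower at -1.79 (edgeR adjusted p = 0.0107). Casp8ap2 had 182, 215 and 188 CPM after injury and 135, 182 and 186 CPM in the controls and did not pass. Ticam1, the adaptor TRIF of Toll-like receptors, had 26.2, 20.02 and 19.3 CPM after injury and 44.4, 46.4 and 24.5 CPM in the controls (log2 fold change -1.09, edgeR adjusted p = 0.0180). Tlr4, the lipopolysaccharide receptor at the cell surface, had 1.03, 1.76 and 0.838 CPM after injury and 2.05, 5.10 and 1.15 CPM in the controls, too few counts for the test.

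The FPKM columns of the authors' deposited table equalled the count divided by length and total and then divided a further time by the total, in units of 1000000 counts, to within a relative difference of 4.67e-14. In the authors' deposited table Map3k7 therefore had 19.8, 22.3 and 25.03 in injury 1, 2 and 3 and 10.5, 12.02 and 23.8 in controls 1, 2 and 3, where its CPM were 370, 407 and 384 and 264, 303 and 400.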
